A study of Mus musculus with 20 samples.

Results

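The genes described here are 10 genes that microglia and macrophages switch on when they take up lipid or cellular debris: Trem2, Tyrobp, Clec7a, Itgax, Spp1, Lgals3, Gpnmb, Cst7, Cd68 and Lpl. They were chosen by name, and all 10 were found among the 46078 mouse genes counted in each library. The libraries came from brain tissue of wild type male C57BL/6J mice that were 18 months old, collected 7 weeks after a distal occlusion of the middle cerebral artery combined with hypoxia (DH stroke). Every mouse had a stroke, so no library came from an uninjured brain. Vehicle mice received sterile PBS, and HPBCD mice received 4 g/kg of hydroxypropyl-β-cyclodextrin, a sugar ring that holds cholesterol in its cavity. Both were injected under the skin 3 times per week for 6 weeks, starting 1 week after stroke. The dead core of the infarct was removed before dissection, and the tissue next to it (peri-infarct) and the matching tissue of the other hemisphere (contralateral) were sequenced, with 5 libraries for each of the 4 combinations of region and treatment.

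Trem2 is a surface receptor for lipids and lipoproteins on microglia, the resident phagocytes of the brain, and it signals through the adaptor Tyrobp. Microglia around dying or lipid-rich tissue lose part of their resting gene expression and gain a set of genes for phagocytosis, lysosomes and lipid handling, known as the disease-associated program. Foamy macrophages, which are filled with lipid droplets, express many of the same genes. In bulk tissue, more cells of a type and more RNA per cell cannot be told apart.

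Gene counts ranged from 14445021 to 22171627 per library, so that 3 counts corresponded to between 0.135 and 0.208 CPM, the unit of counts scaled to library size that is used throughout. One library stood apart in how its reads were assigned: in HPBCD contralateral replicate 4, 9.5% of the table total fell in no gene and 8.03% was ambiguous, against at most 5.86% and 4.16% in the other libraries. The labelled tissue was checked on marker lists. The 6 neuron markers together were at 8638 to 10642 CPM in vehicle contralateral, 10776 to 11397 CPM in HPBCD contralateral, 5744 to 7774 CPM in vehicle peri-infarct and 2802 to 5798 CPM in HPBCD peri-infarct libraries. All 11 homeostatic microglia markers and all 10 pan-myeloid markers had more than 3 counts in at least 1 library of every group.

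The 10 genes lie on 8 chromosomes of the GRCm38 build. Itgax and Tyrobp are both on chromosome 7, at chr7:128129547-128150657 and chr7:30413760-30417585, and Clec7a (chr6:129461591-129472779) and Gpnmb (chr6:49036546-49070929) are both on chromosome 6. The others are Trem2 (chr17:48346401-48354147), Lpl (chr8:68880491-68907448), Cst7 (chr2:150570415-150578944), Spp1 (chr5:104435118-104441050), Cd68 (chr11:69664213-69666153) and Lgals3 (chr14:47367751-47386160). Spp1 shares 309 exonic bases with the unnamed transcript Gm42793 on its own strand, where reads can be ambiguous, and no exon of the other 9 genes overlaps another gene. Clec7a is annotated as a polymorphic pseudogene in this release, although it encodes a receptor.

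Promoters of 8 of the 10 genes were available from RefSeq (GRCm38.p6), each running from 250 bases before to 50 bases after the start site, and they are shown because these genes moved together. Tyrobp and Lpl had no entry. The AP-1 motif TGANTCA, searched on both strands, was found in 5 of the 8 genes and in 9.0% of 27025 genes with a promoter entry. The core motif of PU.1 (GAGGAAG), the factor that defines myeloid cells, was found in Trem2 and Spp1, that is in 2 of 8 genes, and in 15.4% of all genes. The E-box CACGTG and the M-box TCATGTG, both recognised by the MITF/TFE factors of lysosomal genes, were found in 0 of 8, against 8.1% and 4.3% of all genes. In the sequences below, which end just before the start site, capitals mark the motifs, and no motif match overlaps another. A match describes letters only, and binding was not measured.
Trem2 (chr17:48346301-48346400, plus strand; PU.1 core on the reverse strand, then AP-1): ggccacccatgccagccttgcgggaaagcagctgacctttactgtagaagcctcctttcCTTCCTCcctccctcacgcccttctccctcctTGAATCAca
Itgax (chr7:128129450-128129549, plus strand; AP-1): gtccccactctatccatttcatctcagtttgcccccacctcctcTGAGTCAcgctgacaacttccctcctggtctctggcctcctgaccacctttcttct
Cd68 (chr11:69666171-69666330, minus strand; AP-1 at both ends): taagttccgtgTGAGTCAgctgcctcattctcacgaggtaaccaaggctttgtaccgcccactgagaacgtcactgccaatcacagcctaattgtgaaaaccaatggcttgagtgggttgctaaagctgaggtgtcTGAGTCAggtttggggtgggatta

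The first comparison asked how far the program was raised beside the infarct of vehicle-treated mice at 7 weeks. Of the 10 genes, 9 were higher in peri-infarct than in contralateral tissue at an edgeR adjusted p under 0.05, and Lpl did not pass. Among all 15801 genes tested, 10.5% were called higher. In 8 of the 10 genes every peri-infarct library lay above every contralateral library, which held for 6.23% of all genes in that direction. The median log2 fold change of the 10 genes was 3.65, and that of all genes 0.01. In the same libraries 2 of 6 fibroblast markers (median log2 fold change 1.06) and 4 of 6 astrocyte markers (0.59) were called higher and 3 of 6 neuron markers lower (-0.47), and their part in the 10 genes was not tested. Measured by fold change, the steepest were Lgals3 (37.8-fold), Itgax (30.8-fold) and Clec7a (26.6-fold), and the shallowest were Lpl, Tyrobp (3.32-fold) and Trem2 (3.64-fold).

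Among the receptors and their adaptor, Trem2 was at 38.6, 29.8, 109, 62.4 and 47.7 CPM in vehicle peri-infarct libraries 1 to 5, and at 17.1, 16.3, 19.9, 11.1 and 15.5 CPM in the contralateral tissue of the same mice. The groups did not overlap, and Trem2 rose by 1.86 on the log2 scale, with an SE of 0.31 (edgeR adjusted p = 0.00350). Tyrobp, which carries the signal of Trem2 into the cell, was at 32.1, 19.9, 76.0, 51.8 and 36.1 CPM beside the infarct and at 8.46 to 15.9 CPM contralaterally (log2 fold change 1.73, SE 0.31, edgeR adjusted p = 0.00462). Both were readily counted in the contralateral tissue as well, with at least 155 counts in each library. Clec7a (Dectin-1, a receptor for fungal and endogenous glycans) and Itgax (CD11c, an integrin subunit) had far fewer counts there. Clec7a had 1 to 27 counts in vehicle contralateral libraries, or 0.0546 to 1.63 CPM, and was at 10.1, 2.84, 44.1, 25.5 and 14.2 CPM beside the infarct (log2 fold change 4.73, SE 0.75, edgeR adjusted p = 0.00275). Itgax had 0 to 19 counts in the contralateral libraries, where the count of 0 allows up to 0.161 CPM. It was at 7.37, 2.32, 42.8, 16.5 and 12.6 CPM in the peri-infarct libraries (log2 fold change 4.95, SE 0.81, edgeR adjusted p = 0.00297). Without vehicle peri-infarct replicate 3 the Itgax fold change was 4.21 on the log2 scale.

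The secreted and membrane glycoproteins covered a wide range. Spp1 encodes osteopontin, a matrix and cytokine-like protein that binds CD44 and integrins. It was at 45.5, 10.6, 190, 150 and 40.7 CPM in vehicle peri-infarct libraries and at 5.75, 18.8, 11.1, 9.72 and 9.07 CPM in contralateral libraries. Spp1 was the only gene called that overlapped between the regions, because mouse 2 had less of it beside the infarct than contralaterally (log2 fold change 3.03, SE 0.66, edgeR adjusted p = 0.00975). Lgals3 (galectin-3, a lectin that coats damaged lysosomes and cell debris) was at 10.8, 3.82, 34.4, 28.0 and 13.5 CPM beside the infarct. Its contralateral libraries held 1 to 15 counts each, at most 0.904 CPM, which gave a log2 fold change of 5.24 with an SE of 0.67 (edgeR adjusted p = 0.00146). Gpnmb, a membrane glycoprotein of cells with loaded lysosomes, was at 23.8, 7.07, 105, 129 and 23.3 CPM beside the infarct and at 2.10 to 4.52 CPM contralaterally (log2 fold change 4.27, SE 0.73, edgeR adjusted p = 0.00373). Replicates 3 and 4 were thus above 100 CPM, and the other 3 libraries were all below 25 CPM.

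Of the lysosomal genes, Cst7 (cystatin F, an inhibitor of lysosomal cathepsins) was at 7.93, 3.51, 27.4, 15.0 and 10.9 CPM beside the infarct and at 0.218 to 1.22 CPM contralaterally (log2 fold change 4.27, SE 0.59, edgeR adjusted p = 0.00194). Cd68, a glycoprotein of the phagocyte lysosome membrane, was at 35.1, 19.2, 92.2, 65.4 and 42.7 CPM and contralaterally at 14.8, 10.9, 11, 7.64 and 8.87 CPM (log2 fold change 2.27, SE 0.37, edgeR adjusted p = 0.00291). Neither gene overlapped between the regions. Lpl, the lipase that frees fatty acids from lipoproteins, was at 59.7, 29.3, 126, 79.0 and 40.1 CPM beside the infarct and at 54.8, 23.1, 30, 30.5 and 16.2 CPM contralaterally. Its groups overlapped, since contralateral mouse 1 was above 2 of the peri-infarct libraries, and its log2 fold change of 1.13 (SE 0.40) had an edgeR adjusted p of 0.0661. The deposited names tie both regions of a number to 1 mouse, and with the mouse as a block Lpl was called as well (log2 fold change 1.06, edgeR adjusted p = 0.0329). It was also called without vehicle peri-infarct replicate 2 (edgeR adjusted p = 0.0274) and without vehicle contralateral replicate 1 (edgeR adjusted p = 0.0250). Calls of Lpl came too from limma-voom (adjusted p = 0.0200) and with all 4 groups in 1 fit (edgeR adjusted p = 0.0235), but not from DESeq2.

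**Figure D1:**
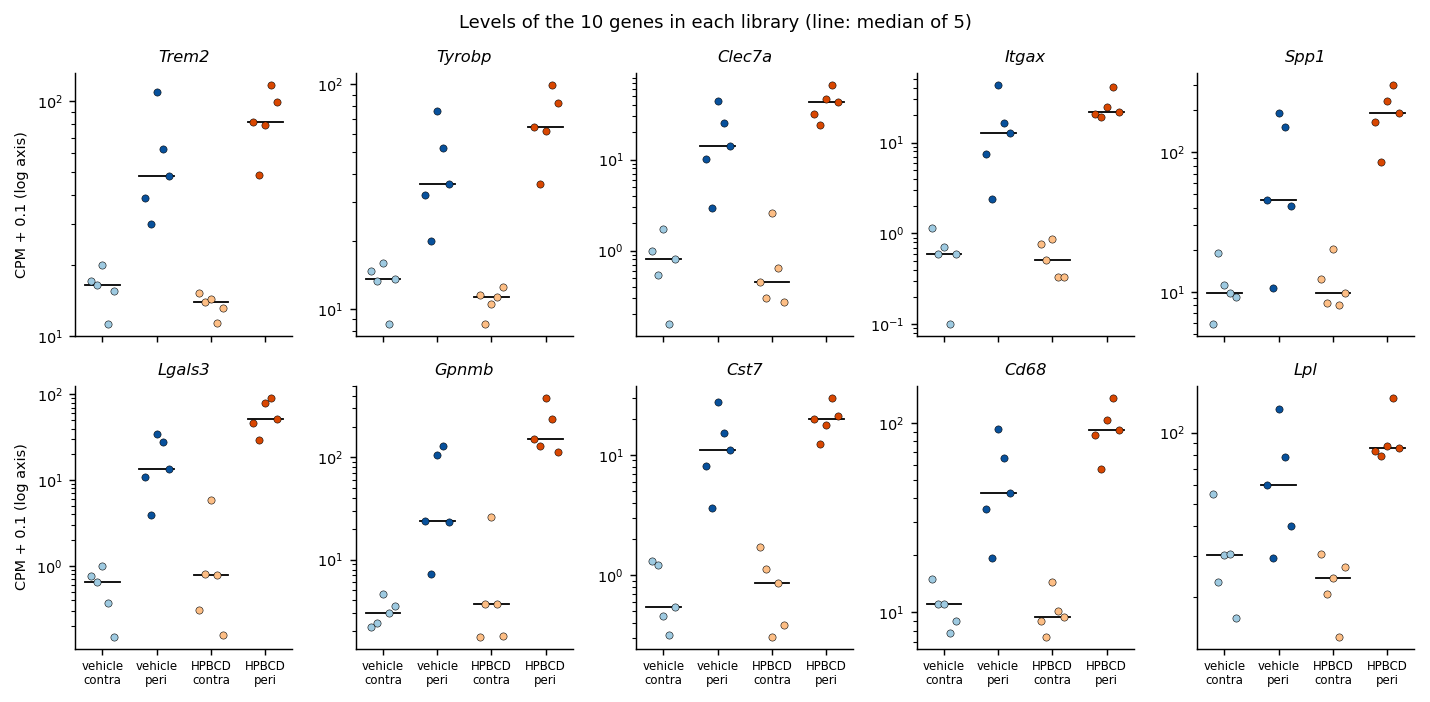
Level of each gene in each of the 20 libraries, as CPM + 0.1 on a log axis, by region and treatment, with replicates 1 to 5 from left to right in each group and a line at the median of 5. Most contralateral libraries lie lowest in both treatments. Some lie above vehicle peri-infarct libraries, such as HPBCD contralateral replicate 3 for Gpnmb (25.9 CPM) and vehicle contralateral replicate 1 for Lpl (54.8 CPM). Vehicle peri-infarct libraries are spread widely (Itgax from 2.32 to 42.8 CPM), and HPBCD peri-infarct libraries are closer together (Itgax from 19.1 to 41.1 CPM).

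The regional change in HPBCD-treated mice was called in all 10 genes, where 30.3% of the 16047 genes tested were called higher. No gene overlapped between the regions, a separation that 22.5% of all genes showed in that direction. The median log2 fold change was 4.39 for the 10 genes and 0.03 for all genes. Markers of other cells rose there too, with medians of 3.77 for fibroblasts (6 of 6 called) and 3.93 for T lymphocytes (4 of 4 tested called), and their part in the 10 genes was not tested. Fold changes ran from 4.27-fold for Lpl to 61.9-fold for Clec7a, and the order at the top changed without HPBCD contralateral replicate 3, where Lgals3 passed Clec7a. The comparison has different control libraries from the vehicle comparison, and whether the changes differ is tested further below.

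In these mice Trem2 was at 81.2, 48.3, 78.8, 117 and 99.0 CPM beside the infarct against 11.2 to 15.1 CPM contralaterally (log2 fold change 2.70, SE 0.20, edgeR adjusted p = 7.17e-07). Tyrobp was at 64.7, 35.8, 62.1, 99.0 and 82.1 CPM against 8.46 to 12.4 CPM (log2 fold change 2.72, SE 0.23, edgeR adjusted p = 1.40e-06). For both the receptor and its adaptor, mouse 4 was highest and mouse 2 lowest beside the infarct. Clec7a was at 31.7, 24.1, 46.5, 65.8 and 42.6 CPM against 0.171 to 2.51 CPM (log2 fold change 5.95, SE 0.52, edgeR adjusted p = 1.97e-06). Itgax was at 20.7, 19.1, 24.5, 41.1 and 21.7 CPM against 0.228 to 0.768 CPM (log2 fold change 5.81, SE 0.33, edgeR adjusted p = 1.90e-07). For Itgax 4 of the 5 peri-infarct libraries lay within 19.1 to 24.5 CPM, and only mouse 4 was higher.

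Spp1 in HPBCD mice was at 164, 84.8, 233, 301 and 189 CPM beside the infarct against 7.92 to 20.1 CPM (log2 fold change 4.11, SE 0.35, edgeR adjusted p = 1.72e-06). Lgals3 was at 46.3, 29.2, 78.4, 92.0 and 51.5 CPM against 0.203, 0.714, 5.79, 0.692 and 0.0571 CPM (log2 fold change 5.47, SE 0.69, edgeR adjusted p = 2.90e-05). Gpnmb was at 152, 128, 384, 236 and 113 CPM against 1.67, 3.57, 25.9, 3.61 and 1.71 CPM (log2 fold change 4.87, SE 0.74, edgeR adjusted p = 0.000126). Mouse 3 was thus the highest for Gpnmb in both regions and the highest contralaterally for Lgals3. Without its contralateral library the log2 fold changes were 6.32 for Gpnmb, 7.23 for Lgals3 and 7.14 for Clec7a. That library held 28.8 CPM of the 8 border macrophage markers against 13.5 to 18.5 CPM in the other HPBCD contralateral libraries, and 94.8 CPM of the 6 fibroblast markers against 45.5 to 77.4 CPM. Their part in its levels was not tested.

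Cst7 was at 19.6, 12.3, 17.7, 29.9 and 21.0 CPM beside the infarct of HPBCD mice against 0.209 to 1.62 CPM contralaterally (log2 fold change 4.66, SE 0.39, edgeR adjusted p = 1.40e-06). Cd68 was at 85.8, 56.7, 103, 136 and 91.5 CPM against 7.34 to 14.3 CPM (log2 fold change 3.30, SE 0.23, edgeR adjusted p = 5.99e-07). Lpl was at 83.3, 79.7, 87.6, 141 and 86.4 CPM against 30.5, 20.6, 24.1, 13.5 and 26.9 CPM (log2 fold change 2.10, SE 0.21, edgeR adjusted p = 5.53e-06). Unlike in the vehicle mice, the regions did not overlap for Lpl. All 10 genes stayed called without contralateral replicate 4, the library whose read assignment stood apart.

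Within single mice, 49 of 50 combinations of vehicle mouse and gene were higher beside the infarct, the exception being Spp1 in mouse 2, which was lower by a log2(CPM + 1) difference of -0.77. All 50 were higher in HPBCD mice. The 50 are not separate observations, since the 10 genes moved together in 5 mice per treatment. The share of all genes higher in every mouse was not counted. Vehicle mouse 2 had the smallest difference for 9 of the 10 genes, for example 0.84 for Trem2 and 1.63 for Lgals3, and Lpl was least changed in mouse 1, at 0.12. The difference of Lgals3 ranged from 1.63 to 4.51 in vehicle mice and from 3.55 to 5.78 in HPBCD mice.

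**Figure D2:**
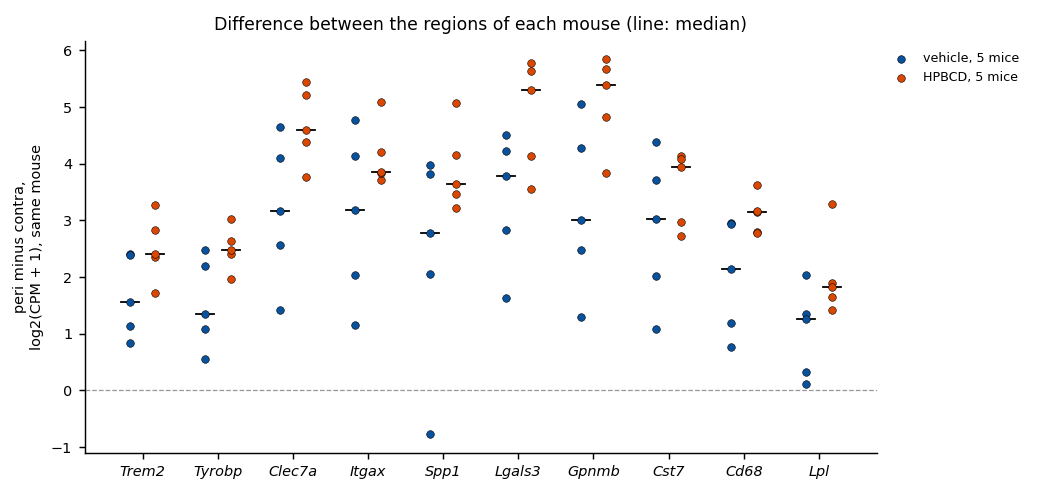
Difference between the peri-infarct and the contralateral library of the same mouse in log2(CPM + 1), for each gene, with 5 vehicle mice (blue) and 5 HPBCD mice (orange) and a line at each median. All points but 1 lie above 0, the exception being Spp1 of vehicle mouse 2 at -0.77.

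Levels of different genes were compared per kilobase of exon. The length was that of all annotated exons of a gene merged, for example 4946 bases for Trem2, 10478 for Lpl and 667 for Tyrobp. Merged exons can be longer than the transcripts present, which were not resolved, so the order between genes depends on these lengths. In HPBCD peri-infarct libraries the order by mean CPM per kilobase (± SD, n = 5) was Spp1 at 118 ± 48.8, Tyrobp at 103 ± 35.5, Cd68 at 75.2 ± 22.7, Lgals3 at 32 ± 13.6 and Gpnmb at 31.1 ± 17.2, followed by Cst7 at 20.4 ± 6.51, Trem2 at 17.2 ± 5.17, Clec7a at 16 ± 6.04, Lpl at 9.13 ± 2.45 and Itgax at 5.29 ± 1.86. Of these neighbours, only Cd68 and Lgals3 were further apart than their SDs reached. In vehicle contralateral libraries Tyrobp led at 19.7 ± 4.24 CPM per kilobase, before Cd68 at 8.47 ± 2.17 and Spp1 at 6.61 ± 2.94. Trem2 at 3.23 ± 0.650 and Lpl at 2.95 ± 1.39 came next and did not differ beyond their spread. Cst7, Gpnmb, Clec7a, Lgals3 and Itgax were all below 0.7 there, from 0.681 ± 0.466 down to 0.110 ± 0.0779. Tyrobp was 1 of the top 2 genes in both groups, and Spp1 passed it only beside the infarct of HPBCD mice, where their spreads overlapped.

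The genes with which the 10 work were read from lists. In this and the next lists, the regional counts called higher stand beside 10.5% of all genes in vehicle and 30.3% in HPBCD mice. Of 19 binding partners and regulators, 15 could be tested in vehicle mice, and 11 were called higher and 1 lower beside the infarct, with a median log2 fold change of 0.95. Cd44, the osteopontin and hyaluronan receptor, went from 2.63 ± 0.686 to 24.4 ± 10.7 CPM (SD, n = 5; log2 fold change 3.22, SE 0.34, edgeR adjusted p = 0.00115). Itgb2, the beta subunit that pairs with CD11c, rose by 2.18 on the log2 scale (edgeR adjusted p = 0.00275), as did Ctsc, the cathepsin that cystatin F restrains, by 1.43 (edgeR adjusted p = 0.00966). Itgav, an integrin subunit that also binds osteopontin, was lower instead, at 106 ± 11.8 against 132 ± 8.56 CPM (log2 fold change -0.31, edgeR adjusted p = 0.0260). That call of Itgav was lost in 5 of the fits with 1 library left out (peri-infarct 1, 4 or 5, contralateral 2 or 3). Clu, a lipoprotein-like chaperone bound by Trem2, was the most abundant of the list, rising from 675 ± 55.2 to 1106 ± 252 CPM (log2 fold change 0.73, edgeR adjusted p = 0.00642).

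In HPBCD mice 16 of 17 tested partners were higher and 1, Itgav, was lower beside the infarct (log2 fold change -0.48, edgeR adjusted p = 0.000902). Cd44 went from 1.82 ± 0.514 to 52.1 ± 17.7 CPM (SD, n = 5; log2 fold change 4.88, SE 0.26, edgeR adjusted p = 1.23e-07). Itgb2 rose by 3.14 (SE 0.22) and Clu by 1.31 (SE 0.12) on the log2 scale. Apoc2, the cofactor that activates the Lpl enzyme, had no count in any of the 5 contralateral libraries, which allows up to 0.208 CPM, and was at 0.651 to 5.37 CPM beside the infarct.

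Of 25 other genes of the disease-associated program, 18 of 24 tested were called higher and 1 lower in vehicle mice (median log2 fold change 0.89), and 23 of 25 were higher and 1 lower in HPBCD mice (median 1.49). Lyz2, the lysozyme of phagocytes, went from 10.4 ± 3.36 to 142 ± 107 CPM in vehicle (SD, n = 5; log2 fold change 3.79, edgeR adjusted p = 0.00227) and from 16.4 ± 15.6 to 414 ± 175 CPM in HPBCD mice (log2 fold change 4.71, or 5.50 without HPBCD contralateral replicate 3). Apoe, the main lipid carrier of the brain and a ligand of Trem2, was the most abundant, rising from 3091 ± 391 to 8150 ± 4405 CPM in vehicle (log2 fold change 1.42, edgeR adjusted p = 0.00944) and from 2877 ± 372 to 14780 ± 5206 CPM in HPBCD mice (log2 fold change 2.41, edgeR adjusted p = 3.55e-06). Cd52, a small surface glycoprotein, rose by 2.41 and 3.21 on the log2 scale. The chemokine Ccl6 was called in vehicle mice with a log2 fold change of 1.71. Ch25h, which makes 25-hydroxycholesterol, rose by 3.51 in HPBCD mice (4.14 without HPBCD contralateral replicate 5). Fth1, the ferritin heavy chain, was at 2819 ± 609 and 2731 ± 453 CPM in the vehicle regions (log2 fold change -0.03, edgeR adjusted p = 0.905), while in HPBCD mice it was called, from 2276 ± 400 to 3729 ± 348 CPM (log2 fold change 0.76, edgeR adjusted p = 0.000391).

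Of 14 lipid droplet and foam cell genes, 8 of 12 tested were higher and 1 was lower in vehicle mice (median log2 fold change 0.70), and 11 of 14 were higher and 1 was lower in HPBCD mice (median 1.98). Abca1, which exports cholesterol from the cell, went from 28.0 ± 1.49 to 101 ± 56.2 CPM in vehicle (log2 fold change 1.86, edgeR adjusted p = 0.00348) and from 29.9 ± 5.22 to 208 ± 74.4 CPM in HPBCD mice (log2 fold change 2.85, edgeR adjusted p = 9.63e-07). Apoc1, a small apolipoprotein, rose by 3.29 and 3.89 on the log2 scale, from under 1 CPM. Msr1, a scavenger receptor for modified lipoprotein, was at 0.337 ± 0.366 and 2.33 ± 2.01 CPM in the vehicle regions (edgeR adjusted p = 0.0333), a call lost with the mouse as a block (edgeR adjusted p = 0.0945) and in 6 of the fits with 1 library left out (peri-infarct 3 or 4, contralateral 1, 3, 4 or 5). Its vehicle log2 fold change was 2.78, or 3.51 without contralateral replicate 2. In HPBCD mice it rose by 4.30 on the log2 scale with an SE of 0.44 (edgeR adjusted p = 5.30e-06), and the fatty acid receptor Cd36 rose by 3.95 (4.96 without HPBCD contralateral replicate 3). Nceh1, which hydrolyses cholesteryl esters, was lower in HPBCD mice, at 116 ± 18.7 against 178 ± 14.0 CPM (log2 fold change -0.56, edgeR adjusted p = 0.00128). Abcg1, a second cholesterol exporter, had a log2 fold change of 0.22 in vehicle mice (edgeR adjusted p = 0.200).

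The markers of resting microglia also went up, by less. All 11 homeostatic markers were called higher beside the infarct in both treatments, with median log2 fold changes of 0.93 in vehicle and 1.25 in HPBCD mice. Cx3cr1, the fractalkine receptor, rose by 1.35 (SE 0.24) and 1.75 (SE 0.14) on the log2 scale. Fcrls rose by 1.25 and 1.87, and Olfml3 was called in HPBCD mice with 1.92. The 10 pan-myeloid markers were all called higher as well, with medians of 1.56 and 2.58. Of these, the complement subunit C1qa went from 93.0 ± 18.5 to 375 ± 199 CPM in vehicle and from 86.4 ± 12.8 to 607 ± 208 CPM in HPBCD mice, C1qb rose by 1.82 and 2.71, and the leukocyte phosphatase Ptprc by 2.17 and 3.05 on the log2 scale. C1qc rose by 1.86 in vehicle mice.

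Averaged per library as log2(CPM + 1), the 10 genes minus the homeostatic markers gave a difference of -2.48 to -2.07 in vehicle and of -2.54 to -1.47 in HPBCD contralateral libraries. Beside the infarct the difference was -0.97, -1.85, 0.04, 0.06 and -0.84 in vehicle mice 1 to 5 and 0.01, -0.21, 0.55, 0.41 and 0.04 in HPBCD mice 1 to 5. Among vehicle libraries, those of mice 3 and 4 were the highest and lay within the range of the HPBCD libraries, and the other 3 were below it. The 2 sets hold different genes and are not scaled by length, so only differences between libraries are read from this measure, not its sign. Beside the infarct, the 8 border macrophage markers summed to 20.1 to 40.2 CPM in vehicle and 44.2 to 97.0 CPM in HPBCD mice, and the interaction of region and treatment was called for 2 of the 8. Markers of monocytes, neutrophils, T lymphocytes and B lymphocytes each summed to at most 19.2 CPM in any peri-infarct library. Ly6g of neutrophils had at most 3 counts in every library of all 4 groups. The part of these cells in the levels of the 10 genes was not tested.

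**Figure D3:**
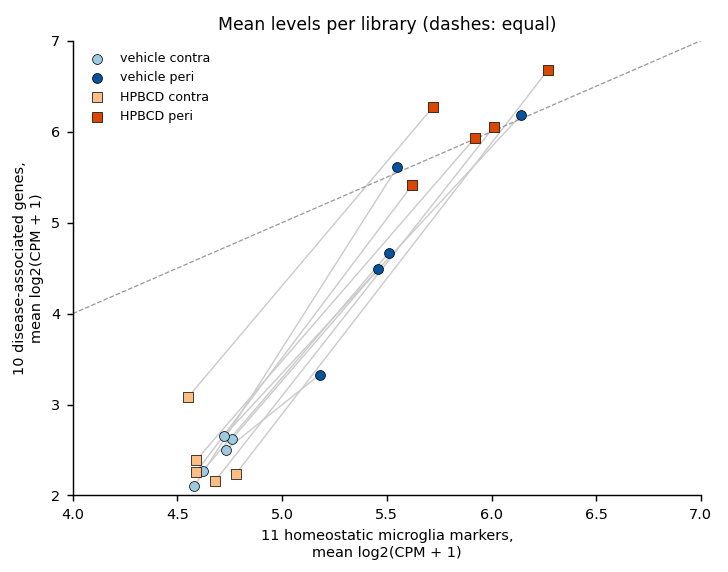
Mean log2(CPM + 1) of the 10 genes against that of 11 homeostatic microglia markers in each of the 20 libraries, with grey lines joining the regions of a mouse and a dashed line where both are equal. Contralateral libraries lie together under the dashed line, and the vehicle peri-infarct libraries run from 1.85 under it to 0.06 above it.

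The comparison of libraries labelled HPBCD with libraries labelled vehicle asked whether the repeated injections went with another level of the program beside the infarct. The direction of each treatment and interaction value rests on the treatment named in the labels and the deposited names. No transcript reads out HPBCD itself, so these data could not check that assignment, and an exchange of the treatments would turn every such sign, those of the neuron, fibroblast and lipid-handling genes included, and would swap the regional changes given above for vehicle and HPBCD mice. As labelled, all 10 genes had higher fitted levels in the HPBCD libraries, but only Lgals3 was called, that is 1 of 10, where 12.4% of all 16224 genes tested were called higher. The groups overlapped for all 10 genes, and 6.90% of all genes separated completely in that direction. The median log2 fold change was 0.80 for the 10 genes and 0.01 for all genes.

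Beside the infarct Lgals3 averaged 18.1 ± 12.7 CPM with vehicle and 59.5 ± 25.4 CPM with HPBCD (SD, n = 5 each), so that its log2 fold change was 1.74 with an SE of 0.50 (edgeR adjusted p = 0.0336). The overlap came from vehicle mouse 3 alone, which at 34.4 CPM was above HPBCD mouse 2 at 29.2 CPM. The largest fitted difference was that of Gpnmb, at 57.6 ± 55.2 and 202 ± 112 CPM (SD, n = 5 each), with a log2 fold change of 1.83 (95% interval 0.35 to 3.32, edgeR adjusted p = 0.0718). Cd68 was at 50.9 ± 28.5 and 94.5 ± 28.6 CPM, with an interval of 0.12 to 1.71 on the log2 scale (edgeR adjusted p = 0.0895).

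The other 7 genes had intervals that included 0. The log2 fold change was 1.17 for Spp1 (95% interval -0.19 to 2.53, edgeR adjusted p = 0.184) and 1.14 for Clec7a (-0.04 to 2.33, edgeR adjusted p = 0.139). It was 0.69 for Tyrobp (-0.06 to 1.44, edgeR adjusted p = 0.155) and 0.58 for Trem2 (-0.15 to 1.31, edgeR adjusted p = 0.216). For Itgax it was 0.66 (-0.56 to 1.89, edgeR adjusted p = 0.402; 1.41 without vehicle replicate 3), for Cst7 0.65 (-0.29 to 1.59, edgeR adjusted p = 0.279) and for Lpl 0.53 (-0.21 to 1.28, edgeR adjusted p = 0.262). These intervals are wide, that of Itgax reaching 1.89, so that equal levels in both treatments were not shown for any of them.

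The count of called genes rested on single libraries. Without vehicle peri-infarct replicate 3, which was the highest vehicle library for 9 of the 10 genes, 9 of 10 were called (all but Spp1). The calls over all genes moved with it, from 2011 of 16224 higher with all libraries to 2792 of 16439. Without vehicle replicate 1 or 5, or HPBCD replicate 3, 4 or 5, Lgals3 was no longer called and the count was 0, with edgeR adjusted p-values for Lgals3 of 0.0757, 0.0686, 0.0804, 0.0764 and 0.0545. Over all genes these 5 fits called between 593 (without HPBCD replicate 3) and 1393 (without vehicle replicate 5) higher. Without vehicle replicate 4 Gpnmb was called with Lgals3 (edgeR adjusted p = 0.0457), and without HPBCD replicate 2 Cd68 was (edgeR adjusted p = 0.0475). Over all genes these fits called 1498 of 16385 and 2665 of 16428 higher. The tool mattered too: DESeq2 called 3 of 10 (Gpnmb, Cd68 and Lgals3) and 2609 of all 16224 genes higher, and limma-voom with quality weights called 7 of 10 and 3224 of all genes.

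**Figure D4:**
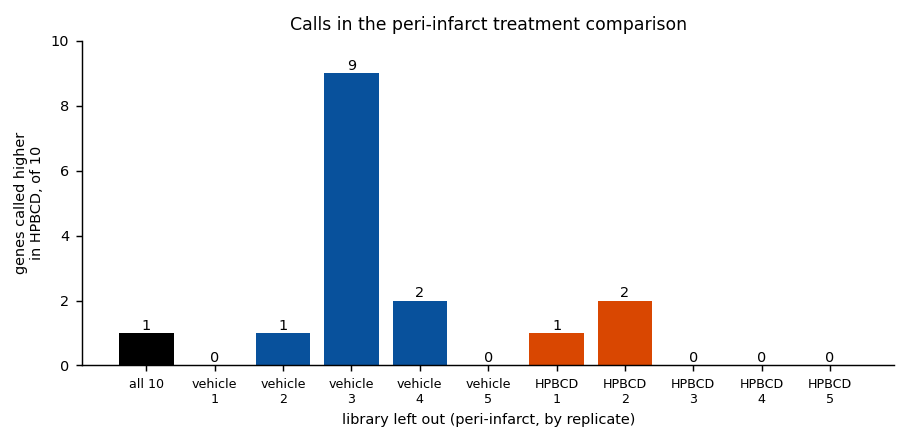
Number of the 10 genes called higher in HPBCD than in vehicle peri-infarct tissue (edgeR adjusted p under 0.05), with all 10 libraries and with each library left out in turn. The bar reaches 9 without vehicle replicate 3, against 1 with all libraries and 0 in 5 of the fits.

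The spread of the vehicle libraries was wide. In vehicle peri-infarct tissue the highest library exceeded the lowest 18.4-fold for Itgax, 18.2-fold for Gpnmb, 17.9-fold for Spp1 and 15.5-fold for Clec7a, and 3.67-fold for Trem2. In HPBCD peri-infarct tissue the same ratio was 2.14 for Itgax, 3.41 for Gpnmb, 3.55 for Spp1, 2.73 for Clec7a and 2.42 for Trem2. Vehicle mouse 2 was the lowest for all 10 genes and vehicle mouse 3 the highest for 9, Gpnmb being highest in mouse 4. Among HPBCD mice, mouse 4 was the highest and mouse 2 the lowest for 9 genes each, the exception in both cases being Gpnmb, which peaked in mouse 3 and was lowest in mouse 5. The difference in spread between the treatments was not tested.

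Other cell markers differed between the same libraries. The 6 fibroblast markers summed to 94.2 to 255 CPM in vehicle and 266 to 776 CPM in HPBCD peri-infarct libraries, without overlap, and all 6 were called higher. Of the 8 border macrophage markers 6 were called higher, whereas of 11 homeostatic microglia markers and of 10 pan-myeloid markers 0 were, with median log2 fold changes of 0.34 and 0.69. Cx3cr1 had a log2 fold change of 0.34 (edgeR adjusted p = 0.345), C1qa of 0.71 (edgeR adjusted p = 0.143) and C1qb of 0.75 (edgeR adjusted p = 0.118), and limma-voom called C1qa and C1qb (adjusted p = 0.0232 and 0.0198). Of 6 neuron markers 4 were called lower. How far the amount of scar or border tissue in the dissected pieces bears on the 10 genes was not tested.

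In the related lists the counts called higher stand beside the 12.4% of all genes called in that direction. Of 14 lipid droplet and foam cell genes 8 were called higher in HPBCD peri-infarct libraries (median log2 fold change 0.97), among them Cd5l, a macrophage lipid-binding protein, at 1.31 ± 1.40 and 22.7 ± 23.0 CPM (log2 fold change 4.14, or 3.33 without HPBCD replicate 3), the fatty acid binding protein Fabp4 (2.79, or 2.16 without HPBCD replicate 3 and 3.49 without vehicle replicate 4) and Cd36 (1.85). Abca1 was at 101 ± 56.2 and 208 ± 74.4 CPM and did not pass in edgeR (adjusted p = 0.0524), but it was called by DESeq2 (adjusted p = 0.0136), by limma-voom (adjusted p = 0.0144), with no filter (edgeR adjusted p = 0.0468) and with all 4 groups in 1 fit (edgeR adjusted p = 0.00815). Nceh1 had a log2 fold change of -0.26 (edgeR adjusted p = 0.103, limma-voom adjusted p = 0.0141). Of 17 tested partners 4 were called higher, among them Ctsc (1.15, edgeR adjusted p = 0.0295), Cd44 (1.11, edgeR adjusted p = 0.0334) and Angptl4, an inhibitor of the Lpl enzyme (1.00, edgeR adjusted p = 0.0441). Clu (0.45, edgeR adjusted p = 0.0765) and Adam10, which sheds Trem2 from the surface (0.20, edgeR adjusted p = 0.0813), did not pass in edgeR, and DESeq2 called both (adjusted p = 0.0362 and 0.0497). Of 25 other program genes 4 were called higher, a share near that of all genes, and 1 lower, and the number called in either direction ran from 0 to 19 with 1 library left out. The 4 were Cd63, a tetraspanin of late endosomes (0.97), Ctsl (0.82), Gusb (0.71) and Fth1 (0.47), and Apoe did not pass in edgeR (0.88, adjusted p = 0.105). Apoe was called by DESeq2 (adjusted p = 0.0425), by limma-voom (adjusted p = 0.0196) and with all 4 groups in 1 fit (edgeR adjusted p = 0.0241). Of these 10 called genes, 9 (all but Cd5l) lost the call without vehicle replicate 1, without vehicle replicate 2 or without HPBCD replicate 3, and 6 or 7 without vehicle replicate 5 or HPBCD replicates 4 or 5. Leaving out vehicle replicate 4 cost Gusb and Fth1 the call, and leaving out HPBCD replicate 1 cost Cd63 and Fth1.

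In the contralateral tissue none of the 10 genes was called different between the treatments. Of the 10 genes 8 could be tested, since Itgax and Clec7a were under the filter on low counts, and 0 were called by edgeR, by limma-voom or by DESeq2 (which gave an adjusted p for 5), with 0 of 8 at an unadjusted p under 0.05. Of all 15469 genes 0 (0%) were called by edgeR, with 1224 at an unadjusted p under 0.05, 0 by limma-voom, and 39 higher and 17 lower by DESeq2. Trem2 had a log2 fold change of -0.25 (95% interval -0.56 to 0.05) and Tyrobp of -0.30 (-0.64 to 0.05). Cd68 was at 10.6 ± 2.73 and 9.98 ± 2.61 CPM (SD, n = 5 each), with an interval of -0.54 to 0.33 on the log2 scale. Spp1 was at 10.9 ± 4.85 and 11.6 ± 5.03 CPM (interval -0.57 to 0.75), Lpl at 30.9 ± 14.6 and 23.1 ± 6.48 CPM (interval -1.04 to 0.19) and Cst7 at 0.672 ± 0.459 and 0.781 ± 0.579 CPM (interval -0.97 to 1.46). Gpnmb and Lgals3 had log2 fold changes of 1.24 (-0.22 to 2.70) and 1.56 (-0.46 to 3.58) that became -0.22 and -0.25 without HPBCD contralateral replicate 3.

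The last comparison tested whether the regional change itself differed between the treatments. The interaction was positive for all 10 genes (that of Lgals3 turned negative in 5 of the fits with 1 library left out), with a median log2 difference of 0.91 against 0.01 for all genes, and 0 of 10 passed the threshold in edgeR, where 5.03% of all 16758 genes passed in that direction. Tyrobp (0.99, SE 0.41, edgeR adjusted p = 0.119), Cd68 (1.02, SE 0.45, edgeR adjusted p = 0.141) and Trem2 (0.83, SE 0.39, edgeR adjusted p = 0.163) had an unadjusted p under 0.05, 3 of 10 in all. DESeq2 called 0 of 10, and 1348 of all 16758 genes positive, and limma-voom called 2 of 10 (Trem2 and Tyrobp) and 1947 of all genes. Without vehicle peri-infarct replicate 3, 4 were called (Trem2, Tyrobp, Lpl and Cd68), and without HPBCD peri-infarct replicate 2, 1 was (Tyrobp). Over all genes the positive calls went from 843 of 16758 to 1589 of 16943 and to 1721 of 16945 in these fits. The markers of other cells moved in the same comparison, with 5 of 6 fibroblast markers (median 2.55) and 2 of 5 oligodendrocyte markers called positive and 4 of 6 neuron markers called negative (median -0.68), and their part in the 10 genes was not tested. Lpl had an interaction of 0.96 (95% interval -0.04 to 1.96), Clec7a of 1.21 (-1.02 to 3.45), Spp1 of 1.08 (-0.50 to 2.67), Itgax of 0.86 (-1.27 to 2.99), Gpnmb of 0.61 (-1.60 to 2.82), Cst7 of 0.39 (-1.26 to 2.04) and Lgals3 of 0.21 (-2.41 to 2.84). Without HPBCD contralateral replicate 3 the values were 2.40 for Clec7a, 2.05 for Gpnmb and 1.98 for Lgals3, and without vehicle peri-infarct replicate 3 that of Itgax was 1.60, none of them called.

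In the related lists the interaction was called for 1 of 25 other program genes, 2 of 17 partners and 1 of 14 lipid droplet genes, each positive, beside the 5.03% of all genes. They were Cd44 (1.65, SE 0.45, edgeR adjusted p = 0.0313), Ctsc (1.26, SE 0.39, edgeR adjusted p = 0.0481), Fth1 (0.78, SE 0.22, edgeR adjusted p = 0.0319) and Plin3, a coat protein of lipid droplets (1.07, SE 0.27, edgeR adjusted p = 0.0247). All 4 lost the call without HPBCD peri-infarct replicate 3 (edgeR adjusted p 0.0507 to 0.0767), and Plin3 kept it in the other fits with 1 library left out. Of the 20 such fits Ctsc lost the call in 14, Fth1 in 9 and Cd44 in 6. Ctsc also lost it with the mouse as a block (edgeR adjusted p = 0.0527), with no filter (edgeR adjusted p = 0.0509) and with thinned counts (edgeR adjusted p = 0.0593), and limma-voom did not call Cd44 (adjusted p = 0.0631). With the mouse as a block Clu was called as well (0.59, edgeR adjusted p = 0.0467), and Nceh1 was called negative (-0.41, edgeR adjusted p = 0.0498), and DESeq2 called both without it (adjusted p = 0.0272 and 0.0297). Apoe (0.99, edgeR adjusted p = 0.109) and Abca1 (0.99, edgeR adjusted p = 0.110) did not pass in edgeR, and limma-voom called both (adjusted p = 0.00861 and 0.0355).

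**Figure D5:**
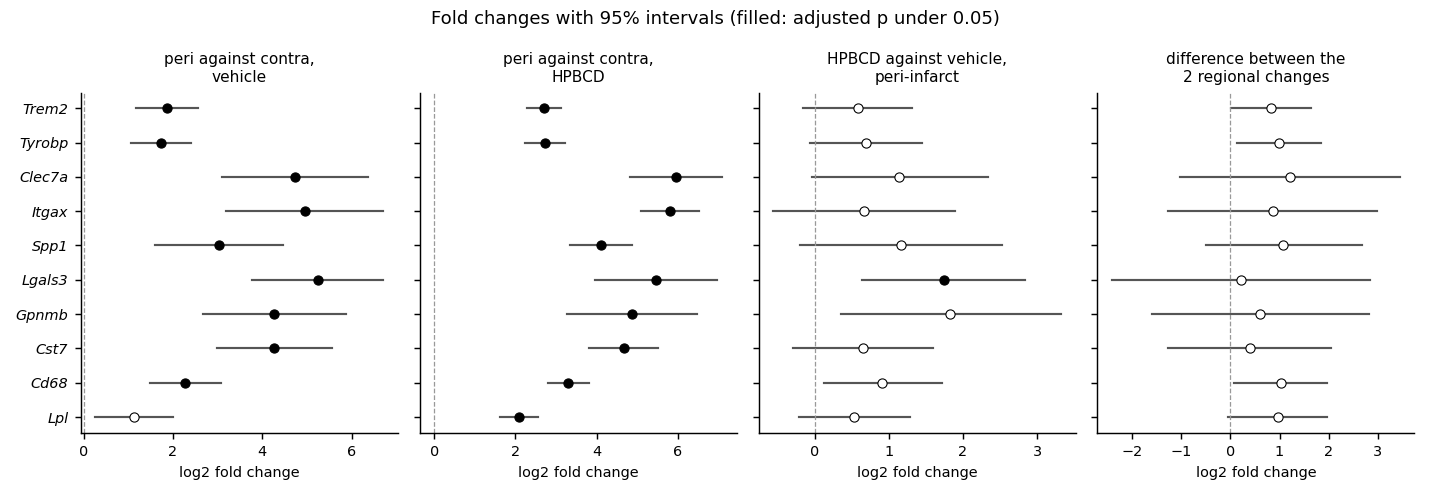
Log2 fold changes of the 10 genes with 95% intervals in the regional comparison of each treatment, in the treatment comparison beside the infarct and for the interaction, with filled points where the edgeR adjusted p is under 0.05 and a dashed line at 0. The regional changes are called for 9 genes in vehicle and 10 in HPBCD mice, the treatment difference for Lgals3 alone, and the interaction for 0.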

How the data were processed

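The authors trimmed paired-end reads of stranded mRNA libraries (Trimmomatic 0.32), aligned them to GRCm38 (STAR 2.5.2b) and deposited whole-number counts per gene from HTSeq, 1 table per library. The annotation release and strand setting are not given in the sources used here. Rows that name no gene were left out (no feature 4.39 to 9.5%, ambiguous 3.94 to 8.03%, not unique 16.58 to 24.3% of each table total). Counts were tested with edgeR 4.0.16 (R 4.3.3; TMM factors, filterByExpr, quasi-likelihood F-test, Benjamini-Hochberg over all genes tested, threshold 0.05), with 10 libraries per comparison and 20 for the interaction. Levels are TMM-scaled CPM. DESeq2 1.42.0 and limma 3.58.1 (voom) were alternatives. Intervals cover 95%, and counting floors cover counting error only.

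The regions of a mouse share an identifier in the deposited names. Over the 10 pairs their deviations from the group means correlated at 0.087 on average, over 0.1 in 5 pairs. Between treatments a number is only a name. The genes and lists were chosen with earlier results of these data known. Besides the 10 genes, up to 3 genes of each related list with the largest change past the threshold and a mean of at least 1 CPM, and the 2 of highest mean CPM, were named per comparison. A gene that this rule names is not reported here. Gene positions and exon lengths are from GENCODE M21, which held 98.16% of the gene identifiers.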

Additional observations from a re-analysis of the deposited data

Results flagged for a closer look

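Single libraries stood apart from the other 4 of their group in 5 of the 40 combinations of gene and group examined, by Dixon's criterion for 5 values. Chance gives about 1 in 20 for independent, normally distributed values. These were unlogged CPM of genes that move together, so 5 of 40 cannot be read against that rate. In HPBCD peri-infarct replicate 4, Lpl was at 141 CPM against 79.7 to 87.6 CPM in the other libraries, and Itgax at 41.1 CPM against 19.1 to 24.5 CPM. In HPBCD contralateral replicate 3, Gpnmb was at 25.9 CPM against 1.67 to 3.61 CPM, Lgals3 at 5.79 CPM against 0.0571 to 0.714 CPM and Clec7a at 2.51 CPM against 0.171 to 0.538 CPM. Trem2 and Tyrobp in the same contralateral library, at 14.2 and 10.4 CPM, lay within the range of its group. The cause was not tested.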

How the results depend on the processing

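The number of the 10 genes called in the vehicle regional comparison was 9, also by DESeq2, and 10 by limma-voom and with all 4 groups in 1 fit. It was 9 to 10 with 1 library left out. In HPBCD mice it was 10 in every such fit. Requiring at least 10 counts in every library left 6 genes to test, of which 5 and 6 were called. With the mouse as replicate block, 10 of 10 were called in each, and the block made no interaction call (0 of 10). In the treatment comparison beside the infarct, 1 was called, 3 by DESeq2, 7 by limma-voom, 3 with all 4 groups in 1 fit (2644 of all 16758 genes higher), and 0 to 9 with 1 library left out. A replicate block there, where numbers do not pair mice, gave 7 (2608 of all 16224). The interaction count was 0, 2 by limma-voom and 0 to 4 with 1 library left out. Other factors, no filter and thinned counts left these counts unmoved. Signs turned only in fits with 1 library left out, for values that had not been called. In contralateral tissue these fits ranged from -0.22 to 0.58 for Cst7 (negative without HPBCD 1), -0.22 to 1.5 for Gpnmb, -0.25 to 1.89 for Lgals3 (both negative without HPBCD 3), -0.20 to 0.37 for Spp1 (negative without HPBCD 3 or vehicle 1) and -0.27 to 0.05 for Cd68 (positive without vehicle 1). The interaction of Lgals3 ranged from -0.12 to 1.98, negative without vehicle peri-infarct 2, vehicle contralateral 3, HPBCD peri-infarct 4 or HPBCD contralateral 1 or 5. The vehicle regional change of Fth1 ranged from -0.15 to 0.07, positive without peri-infarct 2 or contralateral 3 or 5. The causes were not tested. Contralateral libraries held as few as 0 to 4 counts of Itgax, Clec7a, Cst7 and Lgals3. With 5 mice per group, p-values weigh the differences against the spread between the libraries of these mice. The main regional and interaction fits took the regions of a mouse as separate libraries. All libraries come from 1 age and 1 time.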
